A study of Homo sapiens with 2 samples.

Results

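The regions described here are the LSD2 peaks of a 3 Mb domain on the long arm of chromosome 8 (hg19, chr8:127500000-130500000) that holds the genes MYC and PVT1. A peak was counted in the domain if its midpoint lay inside these bounds, and identical lines of the list were counted once. This gave 491 peaks, out of 17761 on chromosome 8 and 370863 in the genome. The peaks came from chromatin immunoprecipitation followed by sequencing (ChIP-seq) of HepG2, an established human cell line from a liver tumour. One library (n = 1) was made with a rabbit polyclonal antibody against residues 26 to 822 of human LSD2, and 1 library was input chromatin with no antibody. Both came from cells in ordinary culture with 25 mM glucose and 10% serum, and no other treatment or genotype was compared. The list gives where LSD2 ChIP exceeded input, as positions without a height or p-value, and the sequencing depth is unknown here. With 1 library per group there is no replicate error, so the differences below are read against the spread between stretches of the chromosome. Intervals cover counting only and treat peaks as independent.

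MYC encodes a transcription factor that drives cell growth and is among the genes most often gained in tumours. PVT1, its neighbour, is transcribed into a long noncoding RNA, hosts several microRNAs and is often gained together with MYC. The sequence around both is a gene desert, known for distant enhancers that contact MYC in a tissue-dependent way. LSD2 is the product of KDM1B. It uses flavin to remove methyl groups from lysine 4 of histone H3 and is known to associate with the bodies of transcribed genes. In the RefSeq gene order of GRCh38.p14, 38 genes lie between the protein-coding genes LRATD2 (also FAM84B) and GSDMC. Of these, 2 are protein-coding, POU5F1B and MYC. The others listed include the long noncoding RNAs PCAT1, CASC19, CCAT1, CASC8 and CASC11 before MYC, the microRNA genes MIR1204 to MIR1208 after it, and LINC00824 and CCDC26 farther on. That assembly differs from the build of the peaks, so MYC and PVT1 alone were placed on them, by the hg19 coordinates chr8:128747680-128753680 and chr8:128806779-129113499.

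The domain was richer in LSD2 peaks than chromosome 8 on average, and the excess was uneven. It held 164 peaks per Mb (exact Poisson 95% interval 150 to 179), against 123 per Mb (121 to 125) over the other 140253 kb of searched sequence. The ratio was 1.33 (exact conditional 95% interval 1.21 to 1.45). Among 1313 windows of 3 Mb elsewhere on the chromosome, stepped by 100 kb, the median held 374 peaks and 6.63% held more than the domain's 491. When the chromosome was divided into 46 adjoining pieces of 3 Mb, the domain ranked 4 from the densest. The 3 Mb just before it held 150 peaks per Mb and the 3 Mb just after it held 127. Against these neighbours together the ratio was 1.18 (1.05 to 1.32). Within the long arm alone, which had 125 peaks per Mb outside the domain, the ratio was 1.31, while the short arm had 118 per Mb. More DNA from a stretch of genome gives more reads and can give more peaks. Copy number was not measured, and its part in these densities was not tested.

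The median peak width in the domain was close to that elsewhere, with a larger share of wide peaks. The median width of domain peaks was 177 bp (order-statistic 95% interval 168 to 191 bp), against 169 bp (168 to 170 bp) in the rest of chromosome 8. The quartiles were 152 and 320 bp in the domain, and 152 and 288 bp elsewhere. Peaks of at least 387 bp, the 90th percentile of all peaks in the genome, made up 15.1% of the domain (74 peaks, Wilson 95% interval 12.2% to 18.5%) and 8.31% of the rest (7.91% to 8.73%). Without the 3 densest adjoining bins, described below, that share of the domain was 8.57% (6.17% to 11.8%). The widest peak was 1598 bp in the domain and 5138 bp in the rest. Peaks covered 4.26% of the domain's sequence, compared with 2.79% of the rest. The domain held 5 of the 14 peaks of chromosome 8 that reached 1000 bp, and had 0 runs of 15 or more peaks each within 2 kb of the next, as did the whole chromosome.

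In bins of 100 kb, the counts formed a long rise from MYC through PVT1 to a maximum well beyond it. The 30 bins held 16.4 ± 8.60 peaks (SD over bins), from 3 to 38, while the other 1400 bins of the chromosome held 12.3 ± 6.23, with a median of 11. Of the 30, 24 lay between the 5th and 95th percentile of the other bins, at 4 and 24 peaks. Upstream of MYC, 12 bins held 8 to 26 peaks, and the highest of them, with 26 and 23 peaks, were the adjoining bins from 128100001 to 128300000. The bin that contains MYC held 14 peaks. The 3 bins centred in PVT1 followed with 14, 18 and 22, and the next 3 with 24, 19 and 25. Counts then reached 30, 38 and 38 in the bins from 129400001 to 129700000 and dropped to 14 in the bin after them. The last 8 bins of the domain held 3 to 16 peaks.

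**Figure D1:**
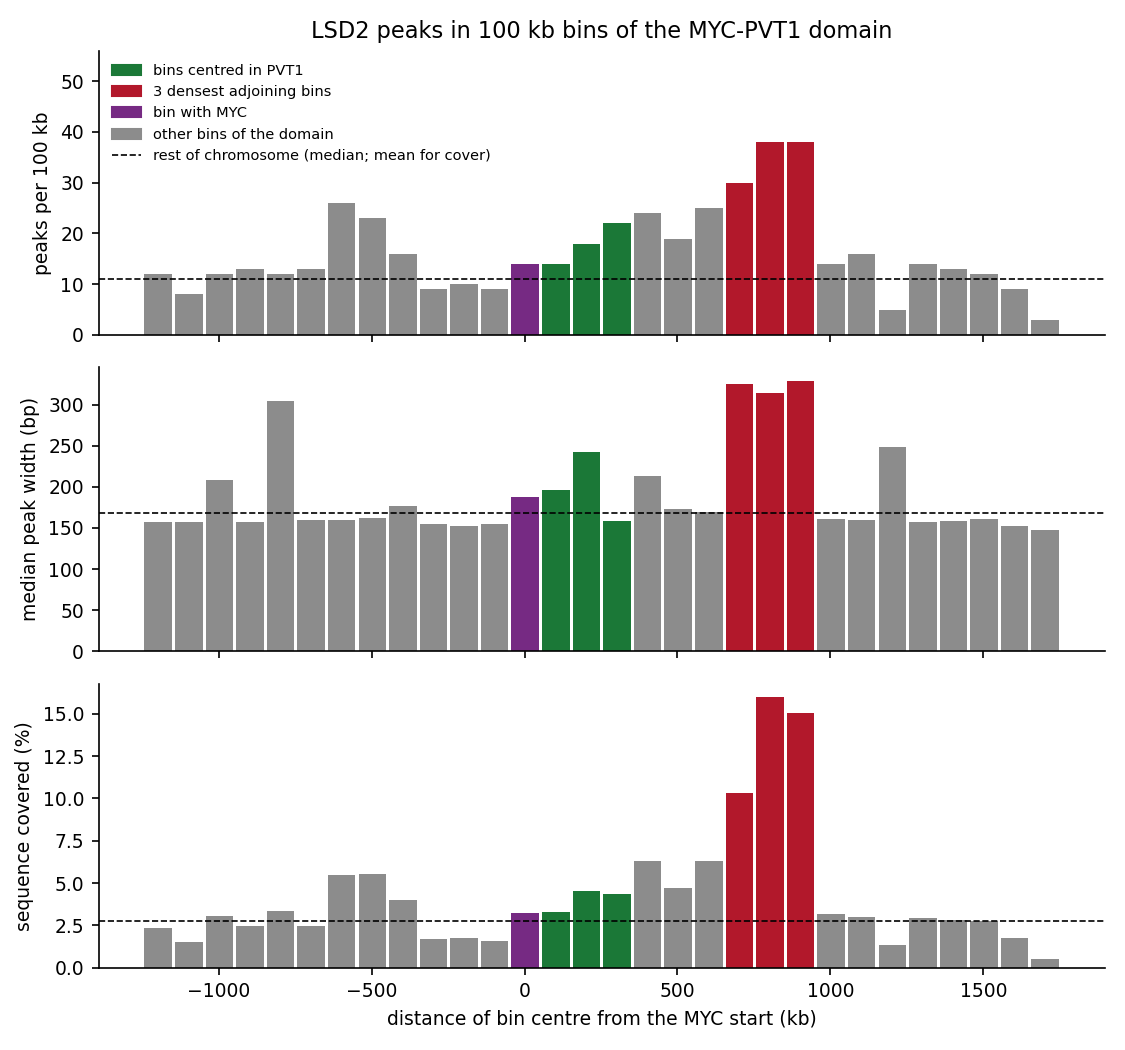
Peaks per 100 kb bin (top), median peak width in bp (middle) and share of sequence covered by peaks in percent (bottom), against the distance of the bin centre from the MYC start in kb. Dashed lines give the rest of chromosome 8 (median bin for count and width, mean for cover), and the 3 red bins, with 30, 38 and 38 peaks, stand above the other 27 in count, width and cover.

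The densest bins were those from 129500001 to 129600000 and from 129600001 to 129700000, with 38 peaks each, followed by the bin from 129400001 with 30. Only 0.571% of the other bins of chromosome 8 held 38 or more peaks, and 1.71% held 30 or more. The sparsest were the last bin, from 130400001 to 130500000, with 3 peaks, the bin from 129900001 to 130000000 with 5, and the bin from 127600001 to 127700000 with 8. A bin with 3 or fewer peaks is not rare, since 4% of the other bins of the chromosome had as few. The longest stretch without a peak, 88.0 kb from 130405174 to 130493136, fell in the last bin. Stretches of 52.5 kb (from 127520747) and 44.5 kb (from 130318692) came next. Mappability was not analysed, so a low count here need not mean little LSD2.

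No peak lay on MYC. The gene's 6001 bp fell inside an 11.4 kb stretch without a peak, from 128744523 to 128755880. Such an absence is common: 50.1% of 23369 windows of the same length on the rest of chromosome 8 held no peak midpoint, and 61.2% of the sequence between peaks there lay in gaps at least this long. A count of 0 in so short a gene allows up to 3 peaks, or 499.9 per Mb (615 per Mb as the upper limit of the exact Poisson interval used for the other regions). Either limit is above the density of PVT1, of the desert on either side and of the densest 300 kb. At this length MYC could therefore not be told apart from its surroundings. The absence of a peak also does not show that LSD2 was absent, because the depth is unknown.

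The nearest peaks stood on either side of the gene, and the 5 within 10 kb of its start were 170 bp wide at the median, close to the 169 bp of the rest of the chromosome. Upstream, a peak of 185 bp from 128744338 to 128744522 ended 3.16 kb before the MYC start, and one of 142 bp from 128743527 to 128743668 ended 4.01 kb before it. Both were listed 2 times in the deposited file. Another, of 163 bp from 128742251, ended 5.27 kb before the start. Downstream, a peak of 172 bp from 128755881 to 128756052 began 2.20 kb after the MYC end, and the next began 20.6 kb after it. Within 10 kb of the MYC start there were 5 peaks, 4 of them upstream, and 6.72% of 20 kb windows elsewhere on the chromosome held more. Within 50 kb there were 12, against a median of 11 in windows of that size elsewhere, and within 100 kb there were 23, equal to the median elsewhere. The peaks within 50 kb were 142 to 357 bp wide. The 53.1 kb between MYC and PVT1 held 7 peaks of 162 to 357 bp.

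**Figure D2:**
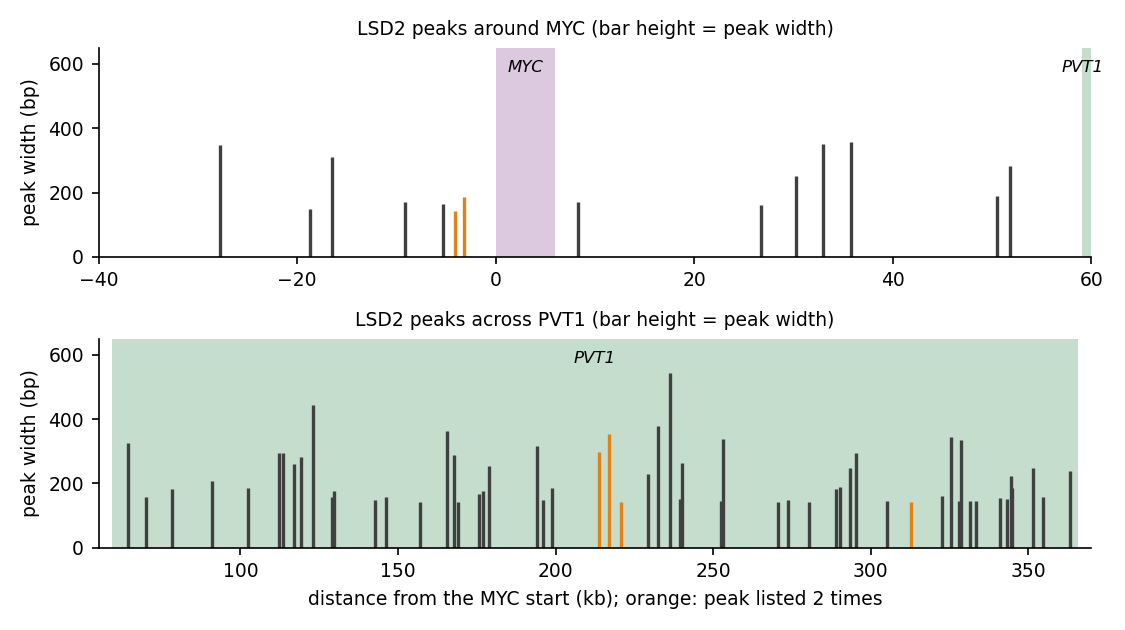
Each LSD2 peak around MYC (top) and across PVT1 (bottom), drawn as a bar at its distance from the MYC start in kb with a height equal to its width in bp. The purple band (MYC) contains no peak, the green band (PVT1) contains 56, and orange bars are peaks that the deposited list gives 2 times.

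PVT1 held 56 peaks in 306.7 kb, which was 183 peaks per Mb (exact Poisson 95% interval 138 to 237). This was 1.48 times the density of chromosome 8 outside the domain (exact conditional interval 1.12 to 1.93). Of 1393 windows of the same length elsewhere on the chromosome, 10.3% held more peaks and the median held 36, with 16 and 66 at the 5th and 95th percentiles. The density of PVT1 was thus above the chromosome's average but inside the range of its windows. Among peaks of at least 387 bp, of which PVT1 had 2, the ratio turned to 0.637 (0.0771 to 2.31). Its peaks had a median width of 186 bp (159 to 248 bp), and 80.3% of those windows had a smaller median.

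Against the gene desert around it, PVT1 did not stand out. The desert was taken as the domain without MYC and PVT1. It is not free of genes, because the other genes named above could not be placed on the peaks and were not left out. The desert held 435 peaks in 2687 kb, or 162 per Mb (147 to 178). The ratio of PVT1 to it was 1.13 (0.838 to 1.49). The 3 bins of PVT1, at 18 ± 4 peaks (SD over bins), lay inside the range of 3 to 26 in the 23 desert bins outside the 3 densest. Which side of the desert was taken decided the direction. PVT1 had 1.34 times the density of the desert upstream of MYC (0.972 to 1.82), which held 136 peaks per Mb. It had 0.981 times that of the desert downstream of PVT1 (0.721 to 1.31), which held 186 per Mb. The downstream density included the densest 300 kb of the domain, and was 230 per Mb before that stretch and 108 after it. Without that stretch the whole desert held 138 per Mb, and the ratio of PVT1 to it was 1.32 (0.980 to 1.76). Flanks of the same length as PVT1 differed from each other more than from PVT1. The upstream flank had 33 peaks and the downstream flank 73, so that the gene's 56 lay between them. The ratio to the upstream flank was 1.70 (1.08 to 2.69) and to the downstream flank 0.767 (0.532 to 1.10).

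With the densest 300 kb included, the median width and coverage of PVT1 lay between those of its upstream and downstream sides over all peaks. Median widths were 164 bp upstream of MYC (157 to 174 bp), 186 bp in PVT1 and 207 bp downstream of PVT1 (173 to 258 bp). The interval for PVT1 overlapped both of the others. Peaks covered 2.96% of the upstream desert, 4.10% of PVT1 and 5.53% of the downstream desert. Downstream, the median was 176 bp before the densest 300 kb and 160 bp after it, both below that of PVT1. Coverage there was 5.93% before that stretch and 2.29% after it. Against the whole desert the median width of PVT1 was larger by 9.5 bp, but among peaks of at least 173 bp, the genome's median, the difference was -56.5 bp (-91.5 to -22.5). That interval covers the PVT1 median only and holds the desert median fixed. The ratio of covered shares, 0.956 to the whole desert, was 1.32 (0.975 to 1.80) without the densest 300 kb of the domain. Very wide peaks did not follow this order. PVT1 had 2 peaks of at least 387 bp, or 3.57% of its peaks (0.985% to 12.1%), whereas the upstream desert had 14 (8.24%) and the downstream desert 58 (22.5%, 17.8% to 28.0%). The count of PVT1 was small, and its interval reached that of the upstream desert but not that of the downstream one. Of the 58 downstream, 41 lay in the densest 300 kb. Before and after that stretch the shares were 16.7% (9.57% to 27.4%) and 6.98% (3.24% to 14.4%), and the interval of PVT1 overlapped both.

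Along PVT1, in the direction of transcription, 3 parts of equal length held 15, 19 and 22 peaks. The last part had 1.47 times the density of the first, with an interval (0.727 to 3.04) that included equal density. Median widths were 185, 254 and 159 bp, and their intervals overlapped. Peaks covered 3.34%, 4.78% and 4.18% of their sequence. The start of PVT1 was free of peaks: the closest before it ended 7.14 kb away at 128799643, and the closest after it began 4.89 kb into the gene at 128811668, with a width of 325 bp.

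The 5 widest peaks of PVT1 lay between 63.9 and 177 kb from its start. The widest was 542 bp, from 128983757 to 128984298, and 1.66% of peaks on the rest of the chromosome were as wide. The next was 444 bp, from 128870434 to 128870877. Then came peaks of 378 bp from 128979985, 364 bp from 128912989 and 355 bp from 128964576, and 13.5% of peaks on the rest of the chromosome were as wide as the last of these. No peak in PVT1 reached 1000 bp.

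Between its own peaks PVT1 had no gap over 20 kb. The gap across its end was not counted: its last peak ended 2.565 kb before that end and the next began 26.633 kb beyond it. The interval of the share of gaps under 1 kb in PVT1 overlapped those of its surroundings. The median gap from one peak to the next was 3283 bp over 55 gaps, and the longest was 17.3 kb, from 129000884 to 129018143. Gaps over 20 kb were 8.28% of those upstream of MYC, 3.89% of those downstream of PVT1 and 8.76% of those in the rest of the chromosome. Gaps under 1 kb were 6 of 55 in PVT1 (10.9%, Wilson 95% interval 5.10% to 21.8%), against 17.2% (12.2% to 23.6%) upstream of MYC and 26.1% (21.1% to 31.8%) downstream of PVT1. In the rest of chromosome 8 the median gap was 4650 bp and 15.7% of gaps were under 1 kb.

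The most peak-rich sequence of the domain was the 300 kb from 129400001 to 129700000, in the desert 287 kb beyond the PVT1 end. It is the 3 adjoining bins with the most peaks, chosen by their counts, so its density is a description. It held 106 of the domain's 491 peaks, or 353 per Mb, against 143 per Mb in the rest of the domain. Peaks there were also wide, with a median of 326 bp against 166 bp in the rest of the domain, and they covered 13.8% of the sequence against 3.20%. Of its peaks, 38.7% reached 387 bp, compared with 8.57% in the rest of the domain. Elsewhere on chromosome 8, 4 of 1394 windows of 300 kb, stepped by 100 kb, held at least 106 peaks, 1 had a median width as large, and 0 had both. Single bins of 100 kb as dense and wide did occur elsewhere. Of 1400 such bins, 2 had at least 30 peaks and a median of at least 313.5 bp, the lowest values in the dense stretch. They held 42 and 46 peaks with medians of 368 and 344 bp, and peaks covered 15.6% and 15.7% of them. Each adjoined a bin with a median just under that width limit, at 302 and 304.5 bp. Those adjoining bins held 58 and 50 peaks, which covered 19.5% and 16.9% of them. Both were above every bin of the domain in count and cover.

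**Figure D3:**
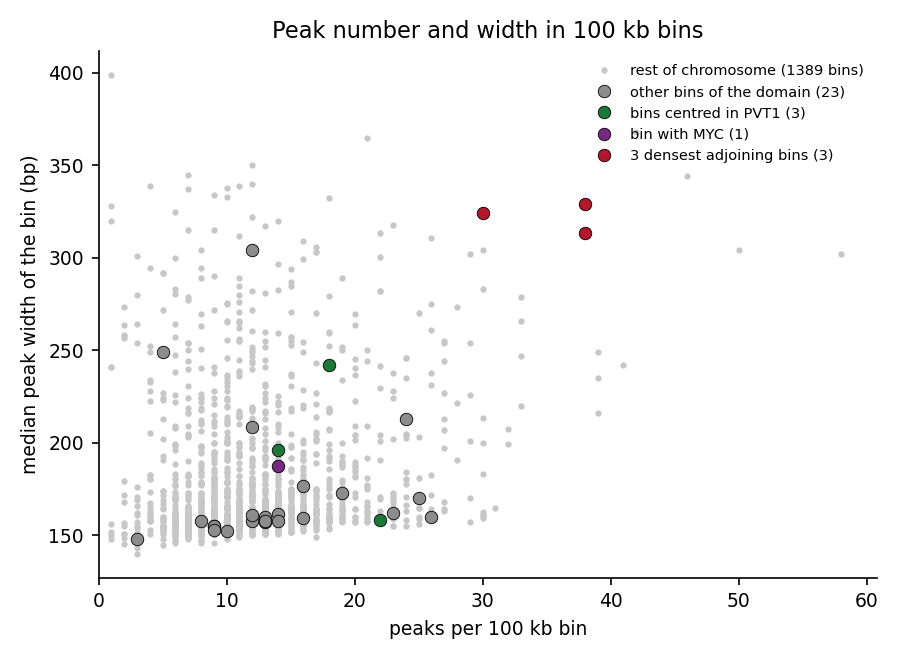
Median peak width in bp against peaks per 100 kb bin, for 1389 bins of the rest of chromosome 8 that held a peak (light grey) and the 30 bins of the domain. The 3 red bins, with 30 to 38 peaks and medians of 314 to 329 bp, lie apart from the PVT1 bins (green), which fall inside the grey cloud.

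Most of the dense stretch's peaks lay in its second part. In bins of 25 kb, counts were 8 and 13 over its first 50 kb and 3 to 6 over the following 100 kb. From 129550001 to 129675000 each of 5 adjoining bins held 10 to 15 peaks. These 125 kb contained 65 peaks with a median width of 328 bp, which covered 22.5% of the sequence. In the rest of chromosome 8, 1.37% of 5608 bins of 25 kb had 10 or more peaks, and 2 stretches of 5 or more adjoining bins did. Inside this part, 8 peaks from 129560506 to 129571476 covered 57.2% of 10.97 kb, with a median of 610 bp. A group of 7 peaks from 129573977 covered 50.9% of 6.37 kb, and another of 7 from 129612981 covered 52.9% of 7.60 kb. Groups of 5 or more peaks within 2 kb of the next numbered 13 in the domain, 7 of them in the dense stretch, and 146 on chromosome 8.

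All 5 of the domain's peaks of at least 1000 bp lay in the dense stretch, and 4 of them within 10.8 kb. The widest was 1598 bp from 129565229 to 129566826. It was followed by 1369 bp from 129570108 to 129571476, 1293 bp from 129568726 to 129570018, 1274 bp from 129664877 to 129666150 and 1017 bp from 129575049 to 129576065. On the rest of chromosome 8, 0.0232% of peaks were as wide as the first and 0.0521% as wide as the last of these. The widest peak upstream of MYC, for comparison, was 814 bp from 128234855 to 128235668, in the locally dense bins there.

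**Figure D4:**
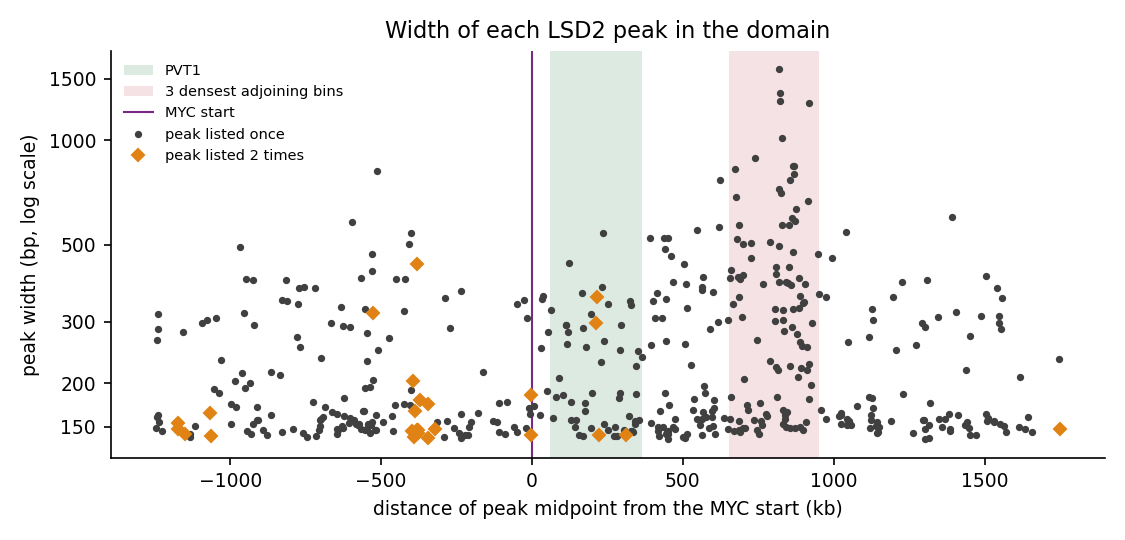
Width in bp (log scale) of each of the 491 peaks against the distance of its midpoint from the MYC start in kb, with PVT1 (green), the 3 densest adjoining bins (red) and peaks listed 2 times (orange diamonds). Peaks of 1000 bp and more, 5 in all, are found in the red band, and PVT1 has none above 542 bp.

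Without the dense stretch the domain was nearer to the rest of the chromosome. The stretch was chosen by its counts, so leaving it out had to lower the domain's density. The rest of the chromosome kept its own densest bins. The other 2700 kb held 143 peaks per Mb, or 1.16 times the density of the rest of chromosome 8 (1.04 to 1.28). The median width there was 166 bp (161 to 175 bp), with an interval that included the 169 bp elsewhere. The desert upstream of MYC alone was at 1.11 times (0.946 to 1.29) and the 800 kb after the dense stretch held 108 peaks per Mb (86.0 to 133) with a median of 160 bp. The 287 kb between PVT1 and the dense stretch held 230 peaks per Mb (178 to 293), with a median width of 176 bp (159 to 265 bp). Across the 30 bins, count and median width had a Spearman's rho of 0.58, and of 0.43 over the 27 bins outside the dense stretch. The value was 0.19 over 1389 other bins of the chromosome. Neighbouring bins share sequence context and libraries, and medians of few peaks vary widely, so these correlations are descriptions.

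**Figure D5:**
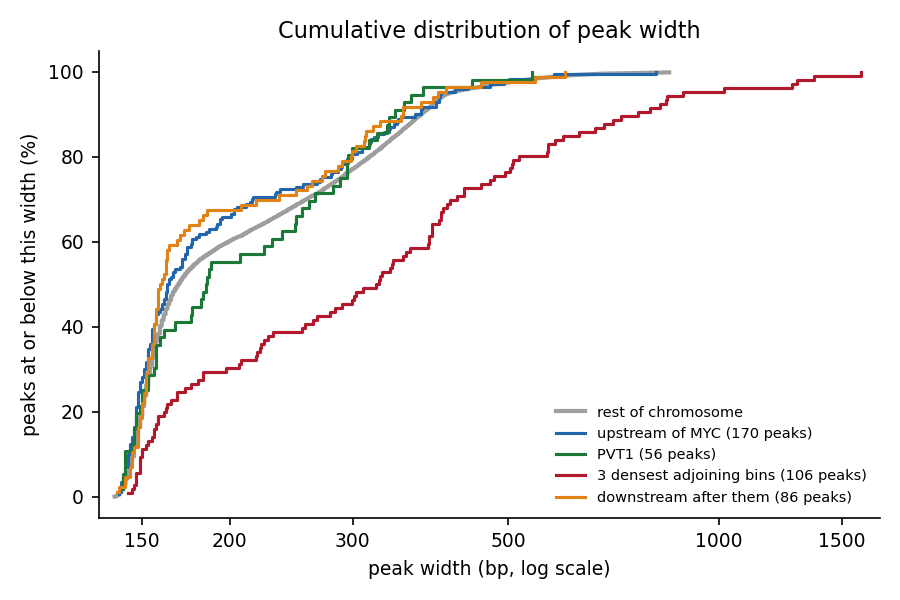
Cumulative share of peaks in percent against peak width in bp (log scale), for the rest of chromosome 8 (drawn to 99.9%) and for 4 parts of the domain. The curve of the 3 densest adjoining bins, with a median of 326 bp, lies to the right of the others, and those upstream of MYC (164 bp) and after the dense bins (160 bp) follow the chromosome (169 bp).

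Intervals that the deposited list gives more than once were unevenly placed in the domain. Of its 491 intervals, 25 (5.09%, Wilson 95% interval 3.47% to 7.41%) were listed 2 times and 0 were listed 3 times or more, against 8.26% listed more than once in the rest of chromosome 8 (7.86% to 8.68%). Upstream of MYC 20 of 170 were repeated (11.8%, 7.75% to 17.5%), in PVT1 4 of 56 (7.14%, 2.81% to 17.0%) and downstream of PVT1 1 of 258 (0.388%, 0.0685% to 2.16%). The interval of the downstream desert lay below those of the others, but these intervals treat peaks as independent. In the domain 22 of the 25 repeated intervals (88%) stood next to another repeated one, against 85.6% in the rest of chromosome 8. The intervals are therefore too narrow, and their separation is a description. Repeated intervals came in blocks: 12 successive peaks from 128349142 to 128427064, over 77.9 kb, were each listed 2 times. On the rest of chromosome 8, 17 of 497 such blocks had 12 or more peaks, and the longest had 36. In PVT1, 3 of the 4 repeated peaks were neighbours, from 128961357 to 128968564. Conversely, 270 successive peaks from 129070252 to 130493371, a stretch of 1.42 Mb that includes the dense 300 kb, were each listed once. That was the fourth longest of 507 such stretches on the chromosome, whose median was 16 peaks. In bins of 30 or more peaks elsewhere on chromosome 8, 11.3% of peaks were repeated (9.33% to 13.6%). In the dense stretch 0 of 106 were. If peaks were repeated independently, that count would allow a share of up to 2.83% (3 counts) or 3.50% (upper Wilson limit). Because repeats came in blocks, these limits are too low.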

How the data were processed

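Crosslinked chromatin from HepG2 cells was sheared, precipitated and amplified for 15 cycles, and 1 ChIP and 1 input library were sequenced on Ion PGM and Ion Proton instruments, per the labels' protocols. Reads were mapped with BWA to hg19, per the submitters' processing notes. Per the file headers, the authors trimmed reads, removed duplicates and ran MACS on LSD2 against input with a read and fragment length of 120 bp, local bias detection, an enrichment factor of 32 and a p-value cutoff of 1e-05. The versions of BWA and MACS are not stated in these sources. The ChIP and input runs carry different dates in the header, so run and library type cannot be told apart. The deposited values are a start and an end in bases per peak, with no score or other measurement. Such a cutoff calls regions more readily where more reads fall.

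From the 414095 lines, identical lines were counted once. Starts were taken to count from 0, and positions are given counted from 1. Searched sequence ran from the first to the last peak of chromosome 8 without peak-free stretches over 500 kb. Densities carry exact Poisson intervals, ratios of densities exact conditional (Clopper-Pearson) intervals, medians order-statistic intervals and shares Wilson intervals, at 95%. The ratio of covered shares carries a 95% normal-approximation interval on the log scale, with peaks taken as independent. For a difference of medians, the interval is that of the first median, with the other median held fixed. No p-value was computed, because each group had 1 library. Python 3.11.15, numpy 2.4.6, pandas 2.3.3 and scipy 1.17.1 were used. The density ratio and the difference of median widths were tested on simulated peaks. Overlap, subtraction and merging of stretches were checked on small examples, and the other procedures were not tested in this way.

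The named items were MYC, PVT1 and its 3 equal parts, the 3 densest and sparsest bins, the 3 longest gaps, the peaks nearest to MYC and to the PVT1 start, and the 5 widest peaks of PVT1 and of the rest of the domain. The domain, these lists and the alternatives were chosen with earlier results of these data known. The dense 300 kb, its 25 kb bins, the groups of 5 or more close peaks, the widest peak and the densest bins upstream of MYC, and the blocks of repeated lines were chosen after their values were seen.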

Additional observations from a re-analysis of the deposited data

How the results depend on the processing

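Of 64 values under alternatives, 45 kept their direction within the interval of the reported value, and 9 kept it but moved beyond that interval. The other 10 changed direction and were counted apart, whether inside that interval (0.981, -9.5 bp and 1.07 below) or beyond it. The causes were not tested unless stated. The ratio of the domain to the rest of chromosome 8, 1.33, rose to 1.46 for peaks of at least 173 bp, and was 2.41 among those of at least 387 bp, 1.18 against the 3 Mb on either side and 1.16 without the dense 300 kb. The difference in median width, domain minus rest, of 8 bp was 69.5 bp among peaks of at least 387 bp and -3 bp without the dense 300 kb. PVT1 against the desert, 1.13, became 0.243 among peaks of at least 387 bp (2 in PVT1) and 0.981 against the downstream desert. Its ratio to chromosome 8 outside the domain, 1.48, turned to 0.637 when peaks were restricted to 387 bp or more. The width difference of PVT1 minus desert, 9.5 bp, became -56.5 bp among peaks of at least 173 bp, -9.5 bp among those of at least 387 bp and -21.5 bp against the downstream desert. The ratio of covered shares, PVT1 to desert, 0.956, became 0.207 among peaks of at least 387 bp, 1.39 against the upstream desert, 1.07 without the densest desert bin and 1.32 without the dense 300 kb. The densest bin rose from 38 peaks to 55 with bins shifted by 50 kb and to 58 per 100 kb in bins of 50 kb, all within the dense stretch. The share of repeated intervals, domain minus rest, went from -3.17 to -5.38 percentage points among peaks of at least 173 bp. Leaving out the dense 300 kb was chosen after seeing the data, and the other alternatives were planned. No paired analysis was possible because there was 1 ChIP and 1 input library. All counts are limited by a sequencing depth that is unknown.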
